A study of Drosophila melanogaster with 6 samples.

Results

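Rh5 and Rh6, the 2 opsin genes of the fly's R8 photoreceptor, were followed here together with 8 genes that set the choice between them: melt, wts, sens, kibra, Mer, sav, hpo and yki. The genes were chosen by name with earlier results of these data known, and all 10 were found by symbol among the 11836 genes of the deposited table. The data are RNA-seq of adult Drosophila melanogaster heads, from a study of the splicing factor gene Prp31 as a model of a human retinal degeneration. The mutant group is 3 libraries named Prp31_P18, made from homozygous mutants of Prp31 (mutation P18), and the control group is 3 libraries named w, of the genotype white. Each library was made from 50 pooled heads of flies aged 2 days, raised at 25 °C under regular light, with both sexes in the series. The labels do not say whether the mutants also carry a white mutation, nor whether replicates came from separate cultures, so the spread between libraries may be technical.

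Each unit of the compound eye holds an R8 cell that detects blue or green light. In a pale unit R8 makes the blue-sensitive opsin Rh5, and in a yellow unit it makes the green-sensitive opsin Rh6. The choice is set by a switch in which melt, which encodes a pleckstrin homology domain protein, and wts, which encodes the kinase Warts of the Hippo pathway, repress each other. Pale R8 cells express melt and yellow R8 cells express wts. Hippo, Salvador, Merlin and Kibra activate Warts, Warts restrains the coactivator Yorkie (yki), and the zinc finger factor Senseless (sens) marks R8 itself.

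Values are FPKM, fragments scaled by gene length and library total, as the authors deposited them, so levels of different genes can be set side by side. Column totals lay between 348791 and 402452 FPKM, and the labels give an average of 28000000 reads per sample but no depth for each library. All 10 photoreceptor markers were present in every library, at a lowest value of 5.77 FPKM, as were the 5 markers of neurons and 4 of glia. The arrestin genes Arr2 and Arr1 led the first list with 6825 ± 572 and 2877 ± 508 FPKM in mutants (SD, n = 3), and the synaptic genes nSyb and Syt1 the neuronal one with 95.9 ± 11.3 and 27.7 ± 5.38 FPKM. The germline markers vas, nos and Mst98Ca reached at most 0.713 FPKM, and the flight muscle marker fln, at most 0.282 FPKM, was listed at 0 in 2 libraries. Of the other muscle markers, Mhc lay between 127 and 281 FPKM, up between 73.7 and 181 FPKM and Act88F between 0.864 and 4.63 FPKM. Control replicate 3 stood apart: across genes its log2 values correlated at 0.980 and 0.978 with control replicates 1 and 2, while those 2 correlated at 0.996. The markers of adult fat body also differed between libraries. The yolk protein transcripts Yp1, Yp2 and Yp3 summed to 3582 and 3972 FPKM in control replicates 1 and 2, to 19399 FPKM in control replicate 3 and to between 17149 and 45658 FPKM in the mutants. How many males and females each library held is not given in the sources used here. A difference in sex between the pools therefore cannot be told apart from genotype, and its part in these values was not tested.

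Rh6 was by far the most different of the 10 genes between the groups. It had 548, 561 and 402 FPKM in mutant replicates 1, 2 and 3, and 21.6, 22.1 and 21.2 FPKM in control replicates 1, 2 and 3. Every mutant library lay far above every control library, and the lowest mutant library was replicate 3. The group means were 504 ± 88.1 and 21.6 ± 0.416 FPKM (SD, n = 3 each), a ratio of 23.3. On the log2(FPKM + 1) scale the difference was 4.46 with a standard error of 0.14, and 3 of the 8465 genes tested had a higher one. In level, 135 genes exceeded Rh6 in mutant heads and 2229 did in control heads. The gene (FBgn0019940) lies on 3R, 15483158 to 15484699 in build BDGP6, and its 1407 exonic bases are shared with no other annotated gene.

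Rh5 was lower in mutant heads, by a much smaller factor. Its FPKM were 199, 219 and 163 in mutants and 258, 258 and 266 in controls. The groups did not overlap, and mutant replicate 3 was again the lowest library. The means were 194 ± 28.3 and 261 ± 4.50 FPKM (SD, n = 3 each), so the mutant mean was 25.7% lower. The difference on the log2(FPKM + 1) scale was -0.44 with a standard error of 0.13. Rh5 (FBgn0014019) lies on 2L, 12008153 to 12009832, away from the third chromosome that carries Rh6 and Prp31. In bulk heads, fewer cells making a transcript and less transcript per cell cannot be told apart.

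**Figure D1:**
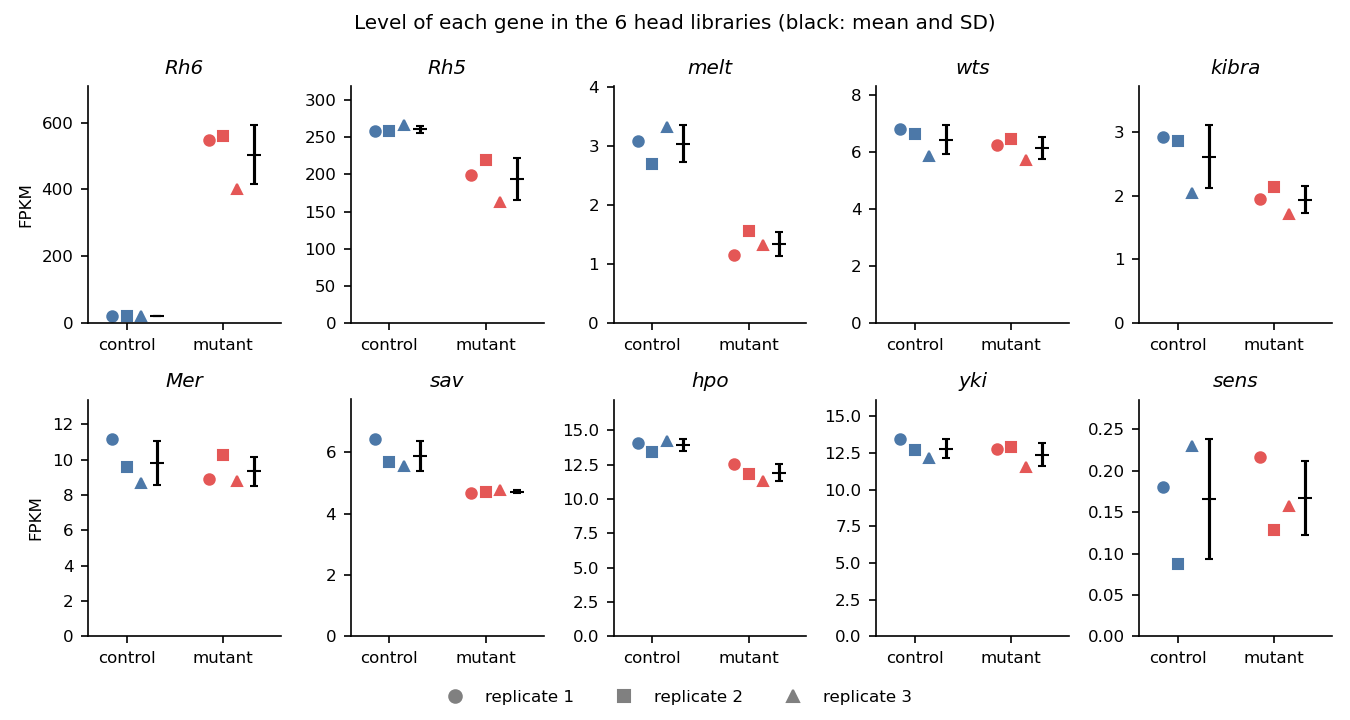
FPKM of each of the 10 genes in the 3 control (blue) and 3 mutant (red) libraries, with symbols for the replicate number, on linear axes that start at 0; black marks give the group mean and SD. Rh6 lies between 402 and 561 FPKM in mutants and between 21.2 and 22.1 FPKM in controls, melt lies between 1.15 and 1.55 against 2.70 and 3.32 FPKM, and wts, Mer, yki, kibra and sens overlap between groups.

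Rh5 exceeded Rh6 in every control library, and Rh6 exceeded Rh5 in every mutant library. The ratio of Rh5 to Rh6 FPKM was 12.0, 11.7 and 12.5 in control replicates 1, 2 and 3, and 0.364, 0.391 and 0.406 in mutant replicates 1, 2 and 3. Rh5 thus made up 92.3%, 92.1% and 92.6% of the summed R8 opsin FPKM in controls and 26.7%, 28.1% and 28.9% in mutants. The group means were 92.3% ± 0.248 and 27.9% ± 1.11 (SD, n = 3 each). This difference is part of what the genes were chosen for, so it is given without a test. The labels do not say whether both groups share a genetic background or which Rh6 allele the control stock carries, so the mutation and other differences between the stocks cannot be told apart, nor which group has the usual level of Rh6. The sum of both opsins was 280, 280.1 and 287 FPKM in controls and 748, 780 and 566 FPKM in mutants. The mutant sum was 2.47 times the control sum, since Rh6 was higher by far more FPKM than Rh5 was lower.

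The ratio varied less between mutant libraries than either opsin did. The coefficient of variation (SD over mean) among mutants was 17.5% for Rh6, 14.6% for Rh5 and 5.49% for their ratio. Controls went the other way, with 1.93% for Rh6, 1.73% for Rh5 and 3.54% for their ratio. Mutant replicate 3 was low in both opsins, and it was the lowest mutant library in 8 of the 10 photoreceptor markers. The geometric mean of the 10 photoreceptor markers was 355, 353 and 283 FPKM in mutant replicates 1, 2 and 3, and 340, 320 and 278 FPKM in control replicates 1, 2 and 3. None of these markers passed the test between groups in the fit across all genes described below (limma, adjusted p under 0.05), and none was below an unadjusted p of 0.05. Relative to that mean, Rh6 was at 154%, 159% and 142% in mutants and at 6.35%, 6.89% and 7.64% in controls. Rh5 was at 56.2%, 62.1% and 57.7% in mutants and at 75.9%, 80.6% and 95.8% in controls. On this measure Rh6 had a mutant coefficient of variation of 5.72% and Rh5 one of 5.30%. In controls the same division widened the spread of Rh5 from 1.73% to 12.3%, as control replicate 3 had the lowest geometric mean of the controls and not the lowest Rh5. The markers did not move together in that library: it was the lowest control in 6 of the 10 and the highest in 3, trpl, Arr1 and Arr2, named after their values were seen, and the plain sum of the markers was highest there, at 10796 FPKM against 10357 and 9814.

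**Figure D2:**
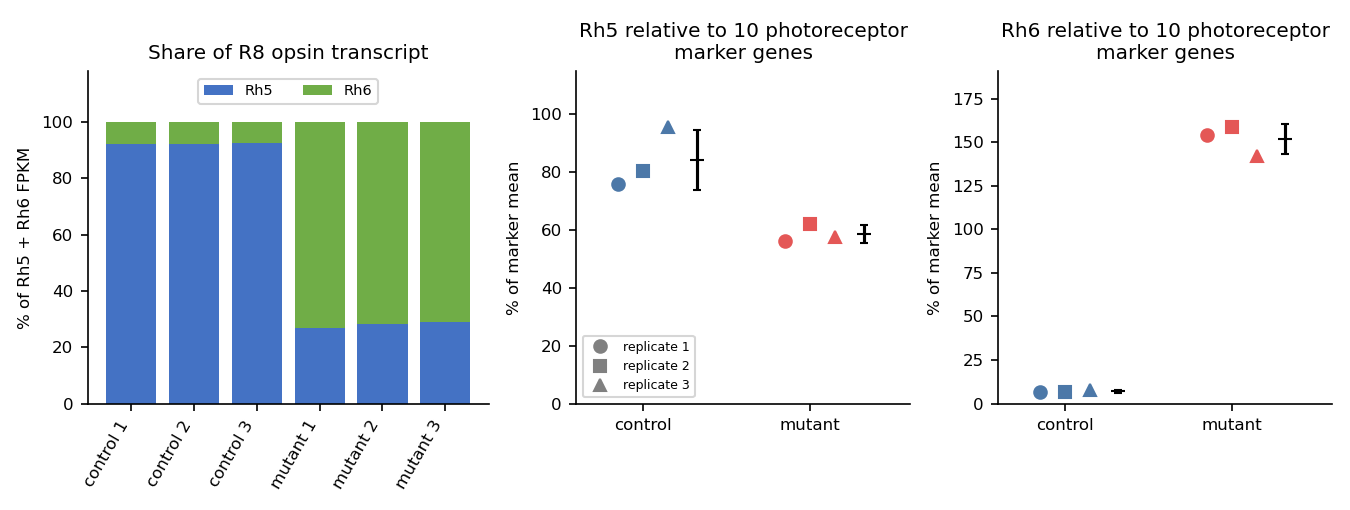
Left, the share of Rh5 (blue) and Rh6 (green) in the summed R8 opsin FPKM of each library; middle and right, Rh5 and Rh6 in percent of the geometric mean of 10 photoreceptor marker genes in the same library, with the group mean and SD in black. Rh5 makes up 92.1% to 92.6% in controls and 26.7% to 28.9% in mutants, and both opsins keep apart between groups when set against the markers.

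The opsins of the neighbouring R7 cell, Rh3 in pale and Rh4 in yellow units, were also measured. Rh4 made up 8.55%, 8.69% and 9.89% of the summed Rh3 and Rh4 FPKM in control replicates 1, 2 and 3, and 20.4%, 20.4% and 18.7% in mutant replicates 1, 2 and 3. The Rh4 share was 2.19 times as high in mutants, beside 9.42 times for the Rh6 share of the R8 opsins. Of the 5 opsin genes outside R8, Rh4 alone passed the limma test (adjusted p = 0.00288, log2 fold change 1.17), beside 3.53% of all genes as higher. Rh4 lies on 3L, 16852527 to 16862517, the same arm as Prp31 at 15159100 to 15161138. The part of linkage to the mutation was not tested. ninaE and Rh7 were also higher in mutants without overlap (limma adjusted p = 0.444 and 0.135), while Rh2 and Rh3 overlapped. ninaE had 14190 ± 2010 and 10182 ± 1245 FPKM in mutants and controls, and Rh7 2.21 ± 0.132 and 1.73 ± 0.178 FPKM (SD, n = 3 each). Thus 3 of the 5 were higher without overlap, beside 9.46% of all genes. The ratio of Rh6 to Rh4, the pair of opsins of yellow units, was 2.92, 2.83 and 2.94 in mutants and 0.283, 0.299 and 0.272 in controls. The ratio of Rh5 to Rh3, the pair of pale units, was 0.272, 0.284 and 0.275 in mutants and 0.316, 0.333 and 0.375 in controls.

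On the side of the switch, melt, the gene of pale R8 cells, was lower in mutant heads. Mutant replicates 1, 2 and 3 had 1.15, 1.55 and 1.31 FPKM, and controls 1, 2 and 3 had 3.08, 2.70 and 3.32 FPKM. All mutant libraries lay below all controls, and control replicate 3 was the control farthest from the mutants. The means were 1.34 ± 0.204 and 3.03 ± 0.313 FPKM (SD, n = 3 each), so controls had 2.27 times the mutant level. On the log2(FPKM + 1) scale, where differences of genes at a few FPKM come out smaller than their ratios, it differed by -0.79 with a standard error of 0.10, and with a pseudocount of 0.1 by -1.13. The gene (FBgn0023001; 3L, 7134516 to 7143074) lies 8.02 Mb from Prp31 on the same arm. Of its 4372 exonic bases 84 are shared with corn on the opposite strand, and whether counting used strand is not given in the sources used here. melt is also expressed outside photoreceptors, and heads do not separate those sources.

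wts, the gene of yellow R8 cells, was at a like level in both groups. Its values were 6.24, 6.47 and 5.73 FPKM in mutants and 6.80, 6.64 and 5.85 FPKM in controls, and the groups overlapped. The difference was -0.06 with a standard error of 0.08 on the log2(FPKM + 1) scale. The ratio of wts to melt FPKM was 5.44, 4.16 and 4.37 in mutants and 2.21, 2.46 and 1.76 in controls. The groups did not overlap in this ratio, while wts alone overlapped. Whole heads do not separate R8 from other cells. Neither the wts values, nor this ratio, nor the values of the Hippo genes below give levels in R8.

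The kinase Hippo and its scaffold Salvador, which together activate Warts, had slightly lower values in mutants. hpo had 12.5, 11.9 and 11.3 FPKM in mutants and 14.1, 13.4 and 14.3 FPKM in controls, a difference of -0.21 with a standard error of 0.07. sav had 4.68, 4.70 and 4.77 FPKM in mutants and 6.44, 5.68 and 5.54 FPKM in controls, a difference of -0.27 with a standard error of 0.08. Neither gene overlapped between groups, and the mutant means were 14.5% and 19.9% lower. Of the 2804 exonic bases of hpo 130 are shared with Rep on the opposite strand, and of the 2235 of sav 73 are shared with Ctns on the same strand.

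Kibra and Merlin act above the kinases at the cell cortex. kibra had 1.95, 2.14 and 1.72 FPKM in mutants and 2.93, 2.86 and 2.04 FPKM in controls, a difference of -0.29 with a standard error of 0.12. Only control replicate 3 reached the mutant range. Mer had 8.91, 10.3 and 8.82 FPKM in mutants and 11.2, 9.61 and 8.66 FPKM in controls, a difference of -0.06 with a standard error of 0.11, and the groups overlapped. yki, which encodes the coactivator that Warts restrains, had 12.8, 12.9 and 11.5 FPKM in mutants and 13.5, 12.7 and 12.2 FPKM in controls. Its difference was -0.04 with a standard error of 0.08, also with overlapping groups.

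sens was near the floor of the table. It had 0.216, 0.129 and 0.157 FPKM in mutants and 0.180, 0.087 and 0.230 FPKM in controls. The groups overlapped over most of their range, and a difference was not detectable at this level. The mean of 0.167 FPKM over the 6 libraries left sens out of the fit, which took genes averaging 1 FPKM or more. It lies on 3L, 1.76 Mb from Prp31.

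In level, both opsins lay above all the regulators in mutants and in controls. In controls, however, Rh6, at a mean of 21.6 FPKM, was nearer to hpo, at 13.9 FPKM, than to Rh5, at 261 FPKM. In controls the order of mean FPKM was Rh5, Rh6, hpo, yki, Mer, wts, sav, melt, kibra and sens. Among neighbours in that order, hpo and yki, wts and sav, and melt and kibra overlapped in their control libraries. In mutants Rh6 stood above Rh5, yki above hpo and kibra above melt. Of these changed pairs, yki and hpo overlapped in the mutant libraries, while the kibra range of 1.72 to 2.14 FPKM lay above the melt range of 1.15 to 1.55 FPKM.

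Across the 9 genes that entered the fit (limma on log2(FPKM + 1), Benjamini-Hochberg adjustment over 8465 genes), 2 were past an adjusted p of 0.05, beside 11.3% of all genes tested. These were Rh6 as higher, beside 3.53% of all genes, and melt as lower, beside 7.81%. Since the genes were chosen with this contrast in view, nothing is read from that count. In 5 of the 9 the groups did not overlap, beside 31.2% of all genes; 4 of these were lower in mutants, beside 21.8%, and 1 was higher, beside 9.46%. Lower fitted values were found for 8 of the 9 and for 64.1% of all genes, but for 5 of the 9 and 50.0% of all genes under either median-ratio scaling or quantile normalization, where wts, Mer and yki turned to values between 0.00023 and 0.029. The median difference was -0.21 for the 9 genes and -0.07 for all genes. Control replicate 3 bears on these counts: without it Rh5, kibra and sav were past the threshold as well, making 5 of 9, while the number over all genes went from 960 to 2208.

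Other genes of the Hippo pathway, none of them among the 10, gave few calls. Of 47 such genes with a value, 42 were tested, and 1 fell, 0 rose and 41 did not pass (limma, adjusted over all genes). The gene that fell was fj, which encodes the Golgi kinase Four-jointed that phosphorylates the cadherins Fat and Dachsous. It had 1.86, 1.75 and 1.99 FPKM in mutants and 4.21, 3.37 and 3.07 FPKM in controls. The groups did not overlap, and fj differed by -0.66 in log2 (limma, SE 0.11, adjusted p = 0.00943). The share called, 1 of 42, is below the 11.3% of all genes, and the median difference of the 42 was -0.10. Before adjustment, 8 of the 42 were lower and 2 higher at a limma p under 0.05, beside 19.2% and 8.14% of all genes and 27.3% in either direction.

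By role, the calls fell as follows. Among the 13 upstream genes tested fj was the only call, and the median difference was -0.17. Before adjustment 6 of the 13 were lower and 1 higher at a limma p under 0.05, beside 19.2% and 8.14% of all genes. Other genes of the list that act with Fat and Dachsous are given here after their values were seen, and none of those tested passed. app, which encodes the palmitoyltransferase Approximated, had higher values in mutants without overlap, 4.18, 3.38 and 3.28 against 2.65, 2.72 and 2.52 FPKM (log2 difference 0.34, limma adjusted p = 0.0626). The differences of dco, lft, CG10933 and CG4221 were -0.22, -0.07, -0.13 and -0.34, and CG4221 passed as lower without control replicate 3. The cadherin genes ft and ds and the atypical myosin gene d stayed below the filter. ft had 0.541, 0.671 and 0.422 FPKM in mutants and 1.31, 1.16 and 0.648 FPKM in controls. ds had 0.375, 0.433 and 0.326 FPKM in mutants and 0.723, 0.636 and 0.457 FPKM in controls. d had 0.225, 0.304 and 0.213 FPKM in mutants and 0.901, 0.823 and 0.563 FPKM in controls. Mutants were below controls in every library for ds and d, ft overlapped through control replicate 3, and with no filter d passed the test beside fj.

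None of the 17 genes of the kinase cassette and its regulators passed, with a median difference of -0.10, and before adjustment 2 were lower and 1 higher at a limma p under 0.05, beside the 19.2% and 8.14% of all genes. The most abundant were Mob4, a component of the STRIPAK phosphatase complex, with 29.2 ± 1.29 and 34.4 ± 1.1 FPKM in mutants and controls (SD, n = 3 each), and mop, which encodes the tyrosine phosphatase-like protein Myopic, with 22.4 ± 1.03 and 18.8 ± 0.914 FPKM. mop and app passed as higher when libraries were rescaled by their median ratio or by quantiles. mop lies on the same arm as Prp31, at 14769341 to 14776129 of 3L. None of the 12 genes tested from the list of Yorkie partners and targets passed either. Their median was -0.03, with 0 genes at an unadjusted limma p under 0.05. This list did not include fj and ex, which were counted with the upstream genes. ex differed by -0.43 (limma adjusted p = 0.149) and passed as lower without control replicate 3. Among the 12, 14-3-3zeta, which encodes a phosphoprotein-binding protein that retains Yorkie in the cytoplasm, had 143 ± 6.83 and 154 ± 6.30 FPKM, and 14-3-3epsilon had 80.4 ± 3.62 and 81.5 ± 3.50 FPKM.

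**Figure D3:**
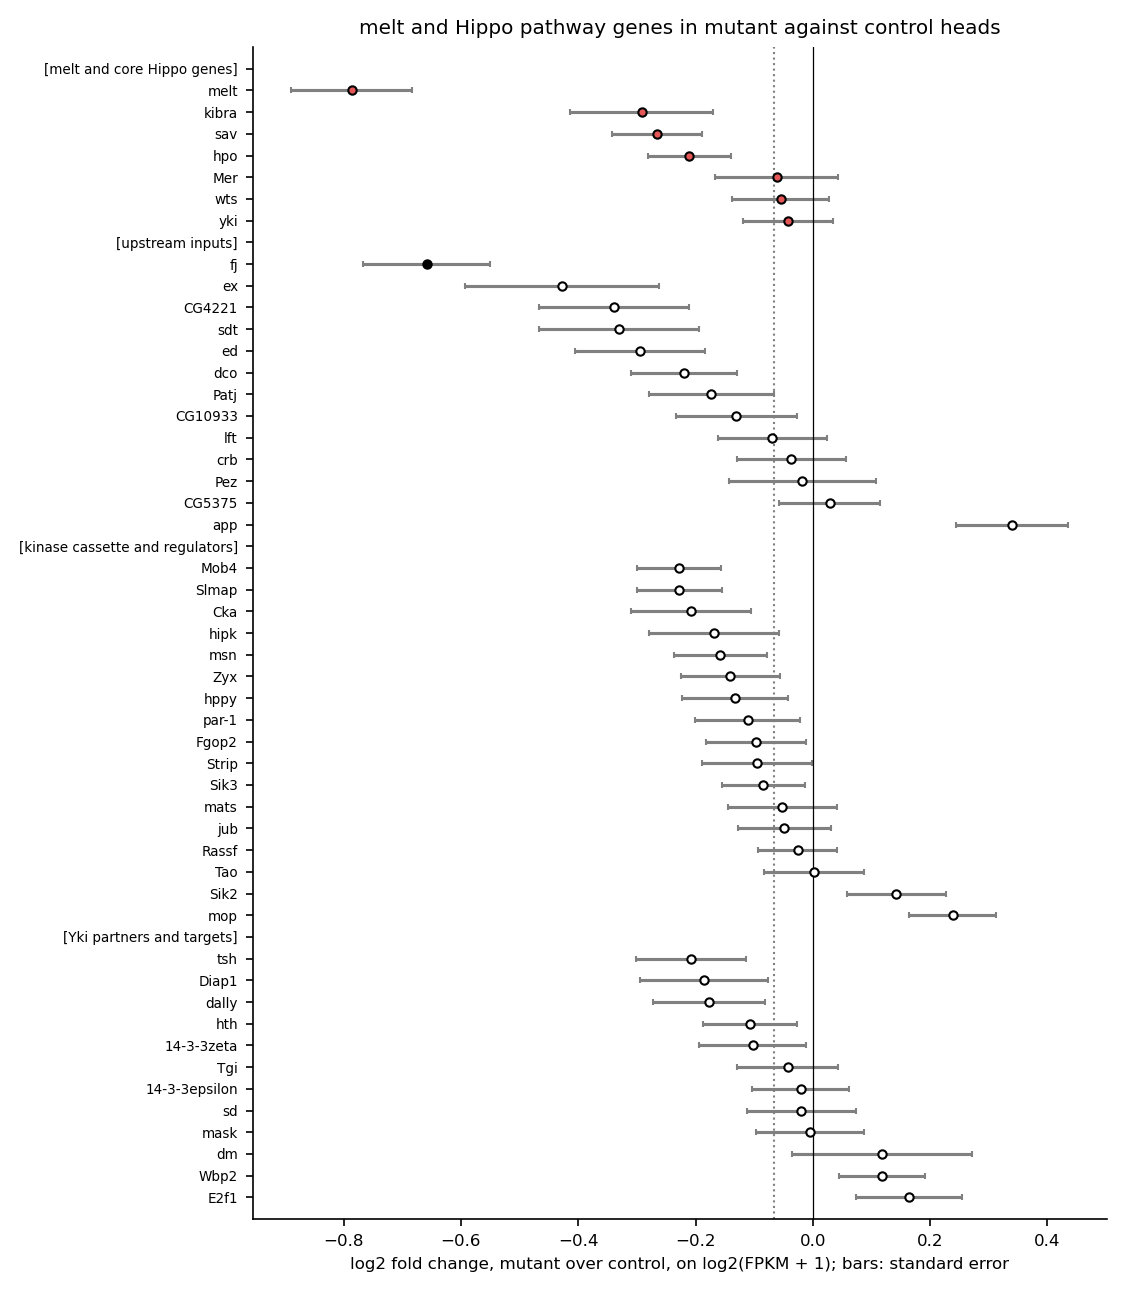
Log2 fold change of mutant over control on the log2(FPKM + 1) scale, with its standard error, for melt and the 6 Hippo genes described first (red) and for 42 other Hippo pathway genes by role; filled black marks a gene past the limma threshold, open circles the others, and the dotted line the median of all genes. melt at -0.79 and fj at -0.66 lie farthest from the median of -0.07, and wts, Mer and yki lie next to it.

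Factors that specify photoreceptor subtypes or bind opsin promoters showed no call among those tested. Of 21 with a value, 7 stayed below the filter: ss, dve, run, ato, ro, dpr11 and CG14521. ss had means of 0.714 and 0.774 FPKM in mutants and controls, and dve 0.496 and 0.510 FPKM. With no filter 0 of the 21 passed. Of the 14 tested in the main fit 0 passed (limma), with a median difference of -0.05. At an unadjusted limma p under 0.05, 1 of 14 was higher, beside the 8.14% of all genes. That gene was sev, the receptor tyrosine kinase of R7 specification, named after its value was seen, with 10.4, 12.3 and 9.43 FPKM in mutants and 7.32, 7.68 and 8.75 FPKM in controls (log2 fold change 0.39, limma adjusted p = 0.0617). It passed under both other scalings and without control replicate 3. boss, which encodes the ligand of Sevenless made by R8, had 77.5, 80.7 and 62.4 FPKM in mutants and 93.5, 86.1 and 55.8 FPKM in controls. The groups overlapped in boss, and the lowest library of each group was replicate 3. The homeodomain factor gene onecut, the other most abundant of this list, had 23.7 ± 4.54 and 26.5 ± 1.87 FPKM (SD, n = 3 each).

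TGF-beta ligands and receptors take part in R8 opsin choice, and Melted interacts with insulin and Tor signalling. Of 25 such genes tested 2 fell and 0 rose, or 8.0% beside 11.3% of all genes, with a median of -0.08. mav, which encodes the TGF-beta ligand Maverick, had 16.5, 18.3 and 16.4 FPKM in mutants and 27.4, 26.3 and 20.7 FPKM in controls (log2 fold change -0.51, SE 0.11, limma adjusted p = 0.0299). S6k, which encodes a kinase downstream of Tor, had 9.18, 9.87 and 9.13 FPKM in mutants and 11.9, 12.0 and 11.6 FPKM in controls (log2 fold change -0.30, SE 0.07, limma adjusted p = 0.0285). Neither overlapped between groups. Leaving out any single library but control replicate 3 ended both calls, with limma adjusted p up to 0.114 for mav and 0.130 for S6k, and both other scalings did so too.

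Markers of other cells also differed between the libraries. The summed level of the 5 fat body markers was 3729 to 19820 FPKM in controls and 17462 to 46492 FPKM in mutants, and none of them passed the test. Before adjustment 4 of the 5 were higher at a limma p under 0.05, beside 8.14% of all genes, with a median log2 difference of 1.83. Without control replicate 3 the yolk protein genes Yp1 and Yp3 passed as higher (limma adjusted p = 0.00238 and 0.000613), and with the replicate block Yp3 did (0.0254). The astrocyte marker alrm was lower in mutants (log2 fold change -0.69, limma adjusted p = 0.0179), 1 of 4 glial markers, beside 7.81% of all genes. The glial markers summed to 378 to 437 FPKM in mutants and 424 to 556 FPKM in controls. Leaving out any single library but control replicate 3 ended the alrm call, with limma adjusted p up to 0.0717. The flight muscle actin gene Act88F was lower (-1.23, limma adjusted p = 0.00392), 1 of 3 muscle markers tested, beside 7.81% of all genes. The muscle list summed to 202 to 265 FPKM in mutants and 240 to 465 FPKM in controls. Before adjustment all 3 tested were lower at a limma p under 0.05, beside 19.2% of all genes, with a median log2 difference of -0.83. The part of these cells, or of the sexes in each pool, in the values of Rh6, Rh5, melt, hpo, sav, fj, mav and S6k was not tested.

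The genes whose profiles over the 6 libraries were most like those of Rh6, Rh5 and melt were sought by the Euclidean distance between mean-centred log2(FPKM + 1) values. For Rh6 they were CG32581 (distance 0.54), CG30054 (1.14) and the cytochrome P450 gene Cyp6a17 (1.14). CG32581 had 29.3, 29.1 and 28.0 FPKM in mutants and 0.020, 0.114 and 0.052 FPKM in controls. Those of Rh5 were CG7787 (0.11), CG11211 (0.14) and CG5705 (0.16), and those of melt were CG30344 (0.15), CG3831 (0.15) and CG30197 (0.16). CG11211 had 127, 141 and 109 FPKM in mutants and 178, 169 and 190 FPKM in controls, so that, like Rh5, it was lowest in mutant replicate 3 and highest in control replicate 3. CG30344 had 16.0, 20.0 and 15.8 FPKM in mutants and 31.1, 28.7 and 31.2 FPKM in controls, and it shared with melt a mutant replicate 2 above the other mutants.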

How the data were processed

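The authors deposited FPKM per gene for every library, unpooled. Per the labels' protocols, RNA was selected for poly(A), 15 PCR cycles were used for strand-specific libraries, and 75 base single reads came from 1 lane. Per the submitters' processing notes, CASAVA 1.8, STAR 2.5.2b and build BDGP6 were used; how FPKM was computed, with which annotation, strand setting and filters, is not given in the sources used here. As FPKM hold no read counts, neither a count model nor counting errors could be used. Columns were matched to samples by title. The 8465 genes averaging at least 1 FPKM were fitted as log2(FPKM + 1) by genotype in limma 3.58.1 (R 4.3.3) with a variance trend. The test was two-sided, with Benjamini-Hochberg adjustment and a threshold of 0.05. The fit was first tested on simulated data. There 60% of genes raised by 0.5 in log2 passed, and 96% of those raised by 1. A gene that did not pass may therefore still differ by a small amount. Positions and overlaps come from Ensembl's BDGP6 annotation, which held 11630 of the 11836 identifiers.

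The members and lists were chosen with earlier results of these data known. The text names all 10 members, up to 4 called genes of each list by size (if none, its 2 most abundant genes), and the 3 profiles nearest to Rh5, Rh6 and melt. Some genes complete a count or were named after their values were seen. They are ft, ds, d, app, dco, lft, CG10933, CG4221, ex, sev, sdt, trpl, fln, Mhc, up, Yp2, Rh2, Rh3, Rh7, ninaE and the germline markers. The opsin regulators below the filter, ss, dve, run, ato, ro, dpr11 and CG14521, are named for the same reason. Lists were matched by identifier or symbol. The alternatives were a pseudocount of 0.1 or 0.5, no filter, a filter of 5 FPKM, 2 other scalings (quantile, median-ratio), no variance trend, a replicate block and each library left out; levels relative to photoreceptor markers were added after seeing the data. Replicate numbers have no stated meaning in the labels and were not treated as pairs.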

Additional observations from a re-analysis of the deposited data

How the results depend on the processing

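Over the alternatives the log2 difference of Rh6 lay between 4.38 and 4.62, and that of melt between -1.13 and -0.69. Both passed the threshold in every refit that tested them. The refits reuse the same 6 libraries and the genes were chosen with this contrast in view, so nothing is read from that. With a filter of 5 FPKM melt was not tested. The Rh5 share of R8 opsin FPKM was 64.5 percentage points lower in mutants, and 63.9 to 65.0 without any 1 library. The members called numbered 2, 1 with a filter of 5 FPKM, and 2 to 5 with each library left out, 5 without control replicate 3. Their median difference of -0.21 was -0.14 with no filter, where sens enters, -0.062 with a filter of 5 FPKM, -0.14 with median-ratio scaling, -0.15 with quantile normalization and -0.29 relative to photoreceptor markers; it was -0.25 to -0.18 with each library left out. The 960 calls over all genes became 629 with a filter of 5 FPKM and 406 to 2208 with each library left out, and the split of 299 higher and 661 lower became 360 and 454 with median-ratio scaling and 384 and 467 with quantile normalization. Of the other Hippo genes, 1 in the main comparison, 2 were called with no filter, 0 with a filter of 5 FPKM, which drops fj, 3 under either other scaling and 1 to 6 with each library left out, 6 without control replicate 3. Of the opsin regulators 1 was called under either other scaling, and 0 to 1 with each library left out. Of the TGF-beta and Tor genes 0 were called under either other scaling, and 0 to 3 with each library left out. The direction of 14-3-3epsilon turned to 0.055 with median-ratio scaling and 0.00013 with quantile normalization, and lay between -0.057 and 0.0082 with each library left out, above 0 without mutant replicate 2 or control replicate 2. That of boss turned to 0.0087 with median-ratio scaling, and lay between -0.29 and 0.075 with each library left out, above 0 without mutant replicate 3 or control replicate 1 or 2. Where no cause is named, the cause was not tested.

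The replicate numbers showed no consistent pairing, since deviations from the group mean correlated at -0.0113, 0.210 and 0.318 for numbers 1, 2 and 3, and number 1 of the mutants correlated best with number 2 of the controls. With the replicate block 1142 genes were called, and 2 of the other Hippo genes, fj and sdt; 2 members were called, as without it. FPKM give no read totals, so precision at low values, as for sens and melt, rests on the libraries' spread alone.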
